A study of Mus musculus with 6 samples.

Results

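The red cell miRNAs miR-451a, miR-144-3p, miR-144-5p, miR-363-3p and miR-486 (rows miR-486a-5p, miR-486a-3p, miR-486b-3p) were read in small RNA of vesicles that mouse mononuclear blood cells (PBMCs) release. The members were taken by name, and all 7 were found among the 620 miRNAs of the deposited count table. The 3 rows of miR-486 held almost the same counts, so they were counted once, which left 5 separate members. Vesicles of untreated cells (control, 3 libraries) were compared with vesicles labelled as IS-stimulated (IS, 3 libraries). All 6 libraries are labelled WT for genotype, and the labels do not spell out IS. They give no dose, time, age or mouse strain. Nor do they tell if replicates are different mice or different cultures, so each p-value refers only to the scatter of the 6 libraries, and that scatter may be technical.

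The members are background markers of the red cell lineage. miR-144 and miR-451a are cut from 1 transcript that the erythroid factor GATA1 switches on as red cell precursors mature, and miR-451a is the miRNA most typical of the mature red cell. Its hairpin is too short for Dicer and is cut by Ago2 instead. miR-486 lies in an intron of Ank1, the gene of the erythrocyte membrane protein ankyrin-1, and is also made in muscle. miR-363-3p belongs to an X-linked cluster of miRNAs of dividing and precursor cells. Mononuclear cells prepared from blood are meant to be free of red cells, and the level of miR-451a against miR-23a-3p, a miRNA found in many cell types, is in common use as an index of haemolysis in plasma and serum.

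A mature sequence was matched by name in RefSeq (GRCm38.p6) for 4 of the 7 members, and the rows of miR-486 are named only. The 4 are shown to compare their seeds with those of other miRNAs, and how reads were assigned to rows was not tested. They are written 5′ to 3′, with the seed (bases 2 to 8, which pair with target mRNAs) in capitals.
miR-451a: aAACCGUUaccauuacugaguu
miR-144-3p: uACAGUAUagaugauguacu
miR-144-5p: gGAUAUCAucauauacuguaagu
miR-363-3p: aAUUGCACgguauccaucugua
The seeds of miR-451a, miR-144-3p and miR-144-5p each occurred in 1 of the 1679 mature mouse miRNAs of RefSeq, and so in no other miRNA matched there. The seed of miR-363-3p occurred in 6, itself included, of which 5 were in the deposited table. The most abundant of these were miR-25-3p and miR-92a-3p, whose bases after the seed differ from those of miR-363-3p.
miR-25-3p: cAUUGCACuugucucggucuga
miR-92a-3p: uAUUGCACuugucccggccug

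The hairpins of miR-144 and miR-451a are shown because the 3 mature miRNAs counted from them stood at very different levels. Mature parts are in capitals.
Mir144: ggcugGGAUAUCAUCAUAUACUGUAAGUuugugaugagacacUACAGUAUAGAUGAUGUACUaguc
Mir451a: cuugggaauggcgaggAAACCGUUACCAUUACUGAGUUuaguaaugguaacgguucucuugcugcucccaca
Mir144 lies at chr11:78073005-78073070 and Mir451a at chr11:78073170-78073241 (both on the plus strand of GRCm38), with 99 bases between them. Mir451b is annotated on the opposite strand at the place of Mir451a, and neither hairpin overlaps a gene other than a miRNA. In the hairpin of miR-144 the 2 arms give 2 separate miRNAs, miR-144-5p at bases 6 to 28 and miR-144-3p at bases 43 to 62 of 66. In that of miR-451a the mature miRNA runs from base 17 to base 38 of 72, past the middle of the hairpin, and 17 of its 22 bases were paired in the fold that RNAfold predicted. The Mir363 hairpin lies at chrX:52741693-52741767 on the minus strand. Mir486, at chr8:23142555-23142682 on the plus strand, lies in an intron of Ank1, and the 90 bases of Mir3107, the hairpin gene that RefSeq also names mir-486b, lie wholly within it on the opposite strand.

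Library totals ran from 125731 to 435468 counts, with control 3 and IS 2 the deepest. These libraries also had the highest red cell share, and the part of depth in that was not tested. All 8 miRNAs of a leukocyte list, chosen for the labelled cell type, were detected, with miR-155-5p at 0 counts in IS 1. Detection alone does not check that label, since lists of other tissues were detected too. The leukocyte list took 1.19 to 3.11% of the counts in control and 1.36 to 3.96% in IS, less than the liver list in each library. The platelet list took more than the leukocyte list except in control 3 and IS 2, and the muscle list took less in each library. Lists of liver, platelet and muscle miRNAs (3 of 3, 3 of 4 and 3 of 3 detected and tested, 0 past the edgeR threshold) took 2.64 to 11.9%, 1.22 to 3.10% and 0.0328 to 0.237% of the counts in control, and 3.61 to 11.6%, 0.821 to 3.24% and 0.189 to 0.506% in IS. The total used here also holds miR-122b-3p, an identical copy of the liver miRNA miR-122-5p, so the liver share would be higher without that copy. The platelet share was lowest in control 3 (1.22%) and IS 2 (0.821%), and the liver share was highest in control 1 (11.9%) and IS 1 (11.6%). The defining markers miR-122-5p (liver), miR-126a-3p (platelet and vessel) and miR-1a-3p (muscle) were above 0 counts in each library. The part of these lists in the results was not tested.

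Red cell miRNAs took between 10.1 and 26.3% of the counts, and that share was not shown to differ between the groups. With miR-486 counted once in the sum and in the total, it was 12.1, 10.1 and 21.3% in control 1, 2 and 3, and 13.0, 26.3 and 16.3% in IS 1, 2 and 3. Control 3 lay above IS 1 and IS 3, so the groups overlapped. The group means were 14.5 ± 5.98% and 18.5 ± 6.93% (SD, n = 3 per group), a difference of 4.01 percentage points (exact two-sided permutation p = 0.5, where 3 libraries against 3 allow no p below 0.1). Counting error was far smaller than this spread, the 95% binomial intervals (Clopper-Pearson) of the 6 shares being at most 0.214 points on either side. Without IS 2 the difference was 0.128 points, and without control 3 it was 7.41 points. Other repeated rows stayed in the total, the largest being miR-122b-3p, an identical copy of miR-122-5p. The surplus from all repeated rows, miR-486 included, was 10 to 18.8% of the deposited totals. With all of them counted once, the difference was 4.12 points (exact permutation p = 0.5). Which cells these miRNAs came from was not tested. In such bulk RNA the number of vesicles that carry them and the amount in each cannot be told apart.

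**Figure D1:**
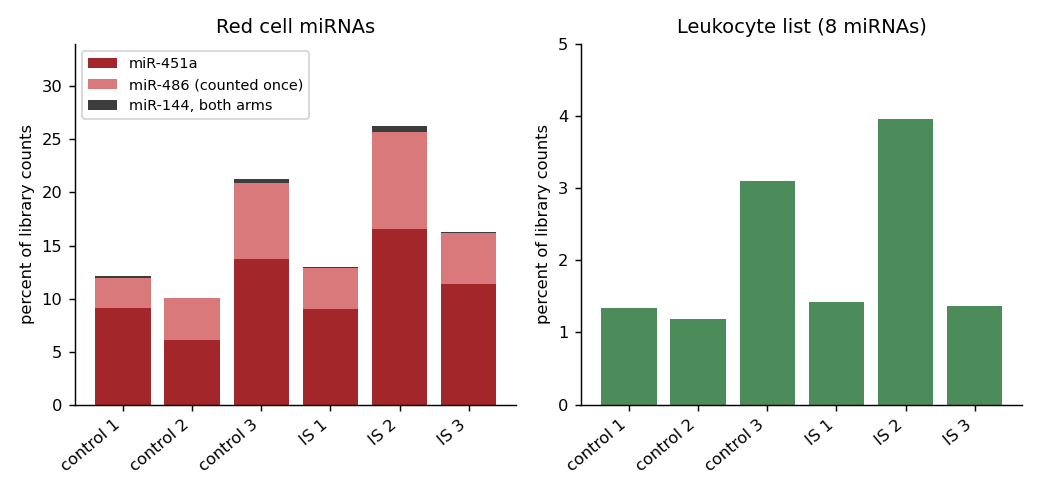
Percent of the library counts (y axis, miR-486 counted once in sum and total) taken by red cell miRNAs (left, stacked by hairpin; miR-363-3p is too low to draw) and by the 8 leukocyte miRNAs (right) in each of the 6 libraries (x axis). Both shares are highest in control 3 and IS 2, with 21.3 and 26.3% for red cell and 3.11 and 3.96% for leukocyte miRNAs.

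Most of that share was miR-451a, which represses regulators of red cell precursor growth and stress response. As CPM, the count per 1000000 counts of its library, it stood at 86519, 56544 and 120395 in control 1, 2 and 3, and at 83611, 140381 and 103435 in IS 1, 2 and 3. It was the third most abundant miRNA of the table by mean CPM. Its highest value, in IS 2, was 2.48 times its lowest, in control 2, and the groups overlapped. The log2 fold change, IS minus control, was 0.34 (SE 0.51, 95% interval -0.79 to 1.47, adjusted p = 0.996 by edgeR with Benjamini-Hochberg). Without control 2, the library with the least miR-451a, it was -0.17, or 0.07 where the scaling of all 6 libraries was kept.

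Reads of miR-486, a miRNA that represses negative regulators of PI3K and Akt signalling, were listed in 3 rows. The counts of miR-486a-5p were 7182, 8558 and 27494 in control 1, 2 and 3, and 5387, 24601 and 5559 in IS 1, 2 and 3. Those of miR-486a-3p differed from them by -1.94 to 1.84%, and those of miR-486b-3p by -3.06 to -0.396%. The 3 rows were thus nearly the same in each library, and miR-486a-5p stands for miR-486 from here on unless another row is named. CPM and the edgeR fit still rest on the deposited totals, which hold all 3 rows. As shares of a total with miR-486 once, the highest library was 2.71 times the lowest for miR-451a. It was 3.26 times for miR-486 and 14.0 times for miR-144-5p. Counted in all 3 rows, as deposited, the same reads added 5.32 to 15.2% of the library totals a second and a further time, and the difference in red cell share was 5.33 points.

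On the CPM scale miR-486a-5p stood at 26567, 36381 and 63137 in control and at 36105, 77527 and 44213 in IS. Control 3 and IS 2 were again the highest libraries, and control 1 the lowest. The log2 fold change was 0.40 (SE 0.52, adjusted p = 0.996, edgeR). It was -0.08 without IS 2 and -0.05 without control 1, or -0.03 and 0.26 where the scaling of all 6 libraries was kept. miR-486 is also a muscle miRNA. The muscle list was lowest in control 1 (0.0328%), where miR-486a-5p was lowest too, and highest in IS 1 (0.506%), and its part in the miR-486 level was not tested.

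Both arms of miR-144 were far lower and spread more widely. miR-144-3p, the arm known to repress the antioxidant factor Nrf2 in red cells, had 138, 40 and 254 counts in control 1, 2 and 3 and 41, 272 and 15 counts in IS 1, 2 and 3. As CPM it was 510.5, 170.04 and 583 in the control libraries and 275, 857 and 119 in the IS libraries. The IS libraries held both the highest and the lowest value, a ratio of 7.18. Its exact Poisson interval in IS 3 was 66.8 to 197 CPM, so the gap to IS 2 exceeded counting error. The group means were 421 ± 221 and 417 ± 389 CPM (SD, n = 3 per group), and the log2 fold change was 0.06 (SE 0.81, adjusted p = 0.996, edgeR), which became -0.01 with library totals alone as the scaling, -1.08 without IS 2 and -0.54 without control 2.

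miR-144-5p, the other arm of the hairpin, exceeded miR-144-3p in each of the 6 libraries. It stood at 1254, 340.1 and 2758 CPM in control and at 637, 4368 and 493 CPM in IS. Again IS 2 and control 3 were the highest, and the highest value was 12.8 times the lowest. The log2 fold change of 0.44 (SE 0.92, adjusted p = 0.996, edgeR) was -1.36 without IS 2, -0.20 without control 2 and 1.13 without control 3.

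miR-363-3p was close to the detection limit and did not follow the other members. Its counts were 0, 41 and 3 in control 1, 2 and 3, and 7, 3 and 13 in IS 1, 2 and 3, or 0, 174, 6.89, 46.9, 9.45 and 103 CPM. The 0 of control 1 allows up to 11.1 CPM at a limit of 3 counts, or 13.6 CPM by the exact Poisson interval (counting error only). It was highest in control 2 and IS 3, where miR-144 was lowest, and low in control 3 and IS 2. The log2 fold change of -0.17 had an SE of 1.52 (adjusted p = 0.996, edgeR) and was 3.30 without control 2, so it carries no direction.

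**Figure D2:**
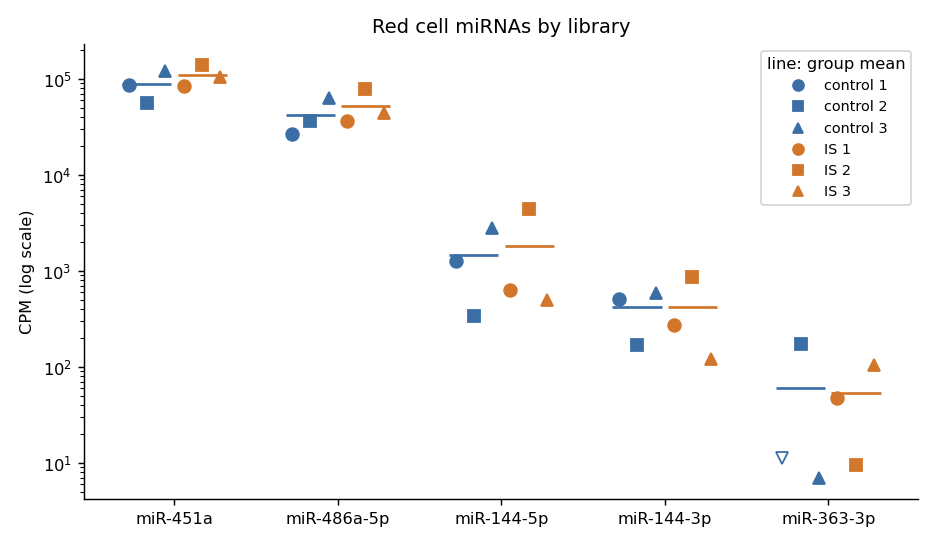
CPM on a log scale (y axis) of the 5 separate members (x axis) in each library, with control in blue and IS in orange, and a line for the mean of each group. The open triangle is control 1 for miR-363-3p, 0 counts drawn at its limit of 11.1 CPM. Control and IS overlap for each of the 5 members.

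The order of the mean levels was miR-451a, miR-486, miR-144-5p, miR-144-3p and miR-363-3p, over mature lengths of 20 to 23 bases for the 4 with a sequence. The first 3 steps of this order held in each of the 6 libraries. The last did not, since in control 2 and in IS 3 miR-144-3p and miR-363-3p lay within each other's counting error (40 against 41 counts and 15 against 13). The counts are not scaled by length.

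Whether any member differed after IS stimulation was tested in the fit across all miRNAs. All 7 rows passed the filter on low counts, and 0 of 7 passed an adjusted p of 0.05, against a background of 0% of the 206 miRNAs tested (0 of 206). At an unadjusted p under 0.05 the background was 1.46% (3 of 206), and 0 of the 7 rows were among them. DESeq2 called 0 of 618, with 14 at an unadjusted p under 0.05. The CPM of the groups did not overlap in 1.46% of the tested miRNAs (3 of 206) and in 0 of the 7 rows. With miR-486 once, 4 of 5 members had a log2 fold change above 0 and the median was 0.34, beside 52.9% above 0 and a median of 0.02 over all tested miRNAs.

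**Figure D3:**
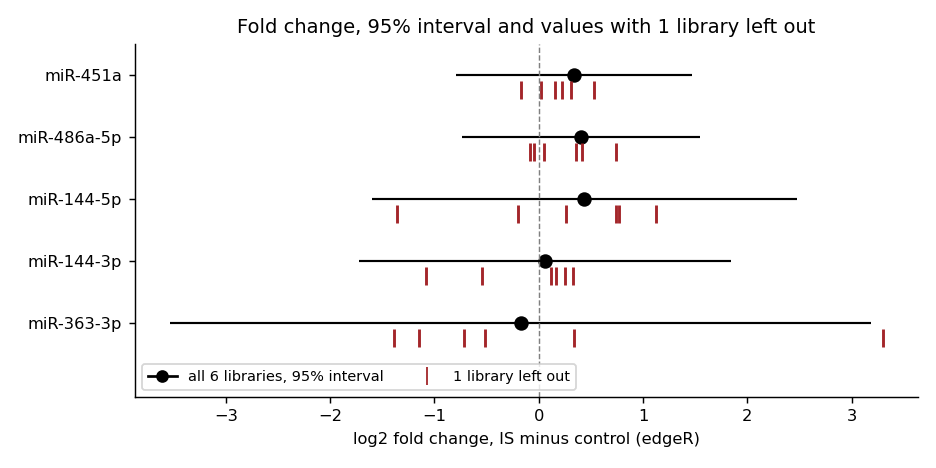
Log2 fold change, IS minus control (x axis), of the 5 separate members (y axis) with the 95% interval of the edgeR fit (black) and the 6 values with a library left out (red ticks). Each interval spans 0, and for each member the red ticks lie on both sides of 0.

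The members differed in how much they varied between libraries. The coefficient of variation of CPM over the 6 libraries was 30.1% for miR-451a and 40.6% for miR-486a-5p, which ranked 182 and 154 of 206 from the most variable. It was 67.5% for miR-144-3p (rank 79), 97.7% for miR-144-5p (rank 19) and 122% for miR-363-3p (rank 7), and the median of all tested miRNAs was 59.0%. miR-451a and miR-486a-5p thus varied less than that median and the other members more. Among the 41 tested miRNAs nearest to it in mean CPM, itself included, miR-451a ranked 30 from the most variable and miR-486a-5p 20, near the middle for its level. On the same count miR-144-3p ranked 11, miR-363-3p 3 and miR-144-5p 2. Repeated rows, those of miR-486 included, stayed among the 206 ranked and among the 41 nearest to miR-486a-5p.

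Ratios between miRNAs of the same library do not depend on scaling, and 7 were compared between the groups. None had an adjusted p below 0.817 (exact two-sided permutation test, n = 3 per group, Benjamini-Hochberg over the 7). The haemolysis index was taken here as the log2 ratio of miR-451a to miR-23a-3p counts. These are counts in vesicle RNA of cells, not in plasma or serum, so limits used there need not apply. The index stood at 6.41, 5.54 and 5.93 in control 1, 2 and 3 and at 6.05, 6.19 and 6.20 in IS 1, 2 and 3. Its means were 5.96 ± 0.44 in control and 6.15 ± 0.09 in IS (SD), a difference of 0.19 (exact permutation p = 0.6). Without control 2 the difference was -0.02. The index spanned 0.87 on the log2 scale over all 6 libraries, close to the 0.85 of the log2 ratio of red cell to leukocyte counts, and the other 5 ratios spanned 1.07 or more. For the index, the 3 IS values lay between the lowest and the highest control value.

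The ratio of the 2 abundant red cell loci spanned 1.07 on the log2 scale. miR-451a exceeded miR-486a-5p in each library, by 3.26, 1.55 and 1.91 times in control and by 2.32, 1.81 and 2.34 times in IS. The difference between the group means of the log2 ratio was 0.01 (exact permutation p = 1), and control 1 alone stood above a ratio of 3, with an exact 95% interval of 3.17 to 3.34 that did not meet the 1.512 to 1.597 of control 2. Without control 1 the difference was 0.31, and without control 2 it was -0.22.

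Within the miR-144 and miR-451a transcript the ratios spanned more. There were 169, 333 and 206 miR-451a reads for each miR-144-3p read in control 1, 2 and 3, and 304, 164 and 867 in IS 1, 2 and 3. IS 3 stood apart, with an exact 95% interval of 525 to 1550 that did not meet that of any other library. The log2 ratio was 7.82 ± 0.49 in control and 8.43 ± 1.19 in IS (SD, n = 3 per group, exact permutation p = 0.7), and without IS 3 the difference of 0.62 became -0.02. The log2 ratio of miR-486a-5p to miR-144-3p was also highest in IS 3 (8.49), and it was lowest in control 1 (5.70), with a difference between the groups of 0.61 (exact permutation p = 0.5), or 0.03 without IS 3 and 0.10 without control 1.

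The balance of the miR-144 arms fell into a higher and a lower range. miR-144-3p reads per miR-144-5p read were 0.407, 0.5 and 0.211 in control 1, 2 and 3 and 0.432, 0.196 and 0.242 in IS 1, 2 and 3. Control 3 and IS 2, which had the most miR-144 of both arms, were the lowest, with intervals of 0.184 to 0.242 and 0.172 to 0.224 that did not meet those of control 1 (0.332 to 0.498), control 2 or IS 1. IS 3, at 62 and 15 counts, could not be placed (0.128 to 0.430). Between the groups the log2 ratio differed by -0.35 (exact permutation p = 0.6), and by -0.09 without control 2.

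The ratio of miR-451a to miR-363-3p ranged most widely. There were 324 miR-451a reads for each miR-363-3p read in control 2, 1000.4 in IS 3 and 1782 in IS 1, but 14849 in IS 2 and 17476 in control 3, each of these last resting on 3 counts, with exact intervals of 5081 to 72005 and 5980 to 84746. In control 1, at 0 counts, the exact interval put miR-451a at least 6340-fold higher (7796-fold at a limit of 3 counts in that library). With 0.5 added to each count the groups differed by -1.15 on the log2 scale (exact permutation p = 0.7), a value that depends on the count added for control 1 and that was 0.32 without that library.

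**Figure D4:**
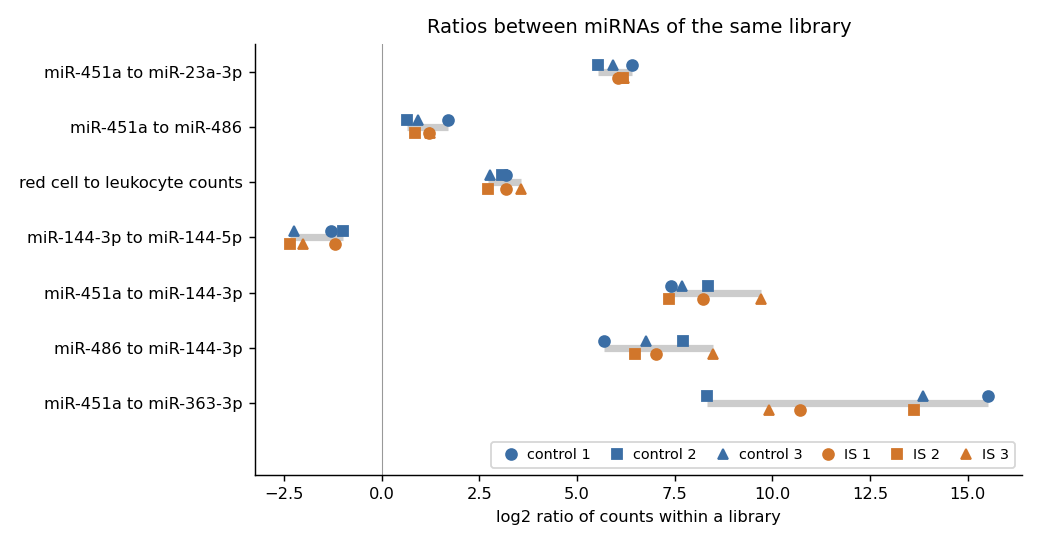
Log2 ratio of counts within a library (x axis) for the 7 ratios compared (y axis), with control in blue, IS in orange and the range over the 6 libraries in grey. The ratio of miR-451a to miR-23a-3p spans 0.87 and that of miR-451a to miR-363-3p 7.19, where the highest point is a library with 0 counts of miR-363-3p.

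The summed share of the leukocyte miRNAs, those of the labelled cell type, was highest in the same libraries as that of the red cell miRNAs, IS 2 and control 3. The largest part of that sum was 1 miRNA, miR-142a-5p, with 7587 of 10660 counts in IS 2 and 8765 of 11863 in control 3. Its part was smaller in control 2 (1165 of 2597) and IS 3 (781 of 1563), so the make-up of the sum changed between libraries. Their share was 1.35, 1.19 and 3.11% in control 1, 2 and 3, and 1.43, 3.96 and 1.36% in IS 1, 2 and 3. Reads of the red cell members outnumbered those of the 8 listed leukocyte miRNAs in each library. The ratio was 9.02, 8.48 and 6.86 in control 1, 2 and 3, and 9.12, 6.64 and 11.9 in IS 1, 2 and 3. It rests on the miRNAs listed, so it does not compare all red cell RNA with all leukocyte RNA. The log2 of that ratio was 3.01 ± 0.21 in control and 3.17 ± 0.42 in IS (SD, n = 3 per group, exact permutation p = 0.6), a difference of 0.15 that was -0.05 without IS 3. The leukocyte share itself differed by 0.369 points (exact permutation p = 0.5), or by -0.486 points without IS 2 and 0.982 without control 3.

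Of the 8 leukocyte miRNAs, 7 had a log2 fold change above 0 and 0 passed the threshold (median 0.28, edgeR), and 1 of them, miR-223-3p, is also on the platelet list. The member miR-142a-5p, which is made in all blood cell lineages, stood at 10095, 4953 and 20128 CPM in control 1, 2 and 3 and at 10757, 23909 and 6212 CPM in IS 1, 2 and 3. It was thus highest in IS 2 and control 3, as were miR-142a-3p, miR-150-5p, miR-155-5p and miR-146a-5p. The other 3 miRNAs of the list were not. miR-223-3p was lowest in IS 2 (18.9 CPM) and highest in IS 3 (255 CPM), miR-342-3p was lowest in control 3 (89.6 CPM), and miR-181a-5p was highest in IS 3 (1399.8 CPM).

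How far the members varied together is given as a description, over 6 libraries that are each scaled to the same total. For the 2 arms of miR-144 the Pearson r of log2(CPM + 1) was 0.93 (Spearman 0.94), and 0.96 without the 2 libraries farthest from the median of miR-144-3p. It was 0.84 between miR-451a and miR-144-5p (Spearman 0.83, 0.55 without the farthest 2) and 0.61 between miR-451a and miR-144-3p (Spearman 0.66), where it was 0.10 without the farthest 2, IS 2 and control 2. Between the separate loci of miR-451a and miR-486 it was 0.76 (Spearman 0.77, 0.91 without the farthest 2). The arms of miR-144 were less close to miR-486a-5p, with 0.69 for miR-144-5p (Spearman 0.49, but -0.78 without the farthest 2) and 0.45 for miR-144-3p (Spearman 0.43, 0.27 without the farthest 2). miR-363-3p ran the other way from miR-144-3p, with r = -0.78 (Spearman -0.71, -0.95 without the farthest 2) while its r with miR-486a-5p was 0.06, or -0.15 with TMM scaling and -0.82 without the farthest 2.

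**Figure D5:**
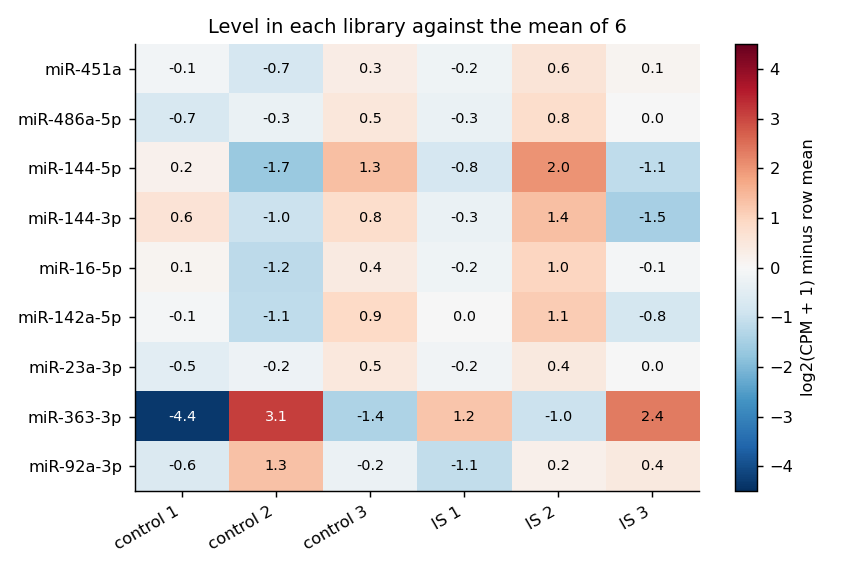
Difference of log2(CPM + 1) in each library (columns) from the mean of the 6 libraries (colour and printed value) for the members and for miR-16-5p, miR-142a-5p, miR-23a-3p and miR-92a-3p (rows). miR-451a, miR-486a-5p and both arms of miR-144 are above their mean in control 3 and IS 2, where miR-363-3p is 1.37 and 0.97 below its own.

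The tested miRNAs most like miR-451a over the 6 libraries, among 189 outside the members and their repeats, were miR-186-5p (Pearson r = 0.98), miR-140-5p (0.97), miR-16-5p (0.96), miR-1964-3p (0.95) and miR-23b-3p (0.94). Among them miR-16-5p, a miRNA abundant in red cells as well as in most other cells, stood at 488, 199.8 and 595 CPM in control 1, 2 and 3 and at 395, 882 and 429 CPM in IS 1, 2 and 3. Its lowest value was in control 2 and its highest in IS 2, as for miR-451a. Since these miRNAs were picked by their r with miR-451a, that likeness follows from the choice and is no separate evidence. Those most like miR-144-3p were miR-30c-5p (0.96), miR-15b-3p (0.92), the leukocyte miRNA miR-142a-5p (0.91), miR-351-5p (0.90) and miR-106b-3p (0.89). The 2 sets had 0 miRNAs in common, but 2 sets of 5 out of 189 need not overlap, so this alone does not set the 2 members apart.

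A list of 12 other miRNAs linked to red cells or their precursors took 0.811 to 1.59% of the counts. Of the 10 tested, 6 had a log2 fold change above 0 and 4 below, with a median of 0.07, and 0 passed the threshold (edgeR). The most abundant was miR-25-3p, of a cluster active in dividing cells, at 2980.02 to 4068 CPM, with its lowest value in control 2 and its highest in IS 1. miR-22-3p stood at 1531, 820.5 and 5530 CPM in control 1, 2 and 3 and at 1669, 5874 and 1129 CPM in IS 1, 2 and 3, again highest in IS 2 and control 3. So were miR-16-5p, miR-15b-5p, miR-106b-5p and miR-210-3p. The rest of the list, miR-25-3p, miR-92a-3p, miR-20a-5p, miR-182-5p, miR-183-5p, miR-96-5p and miR-484, was not highest in that pair of libraries.

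The X-linked cluster of miR-363 was barely seen apart from miRNAs that other clusters also encode. Of its 7 listed miRNAs 3 were tested, all with a log2 fold change below 0 (median -0.40, edgeR, 0 past the threshold). miR-363-5p was seen in IS 2 alone, with 2 counts, and miR-20b-5p had at most 5 counts in any library. miR-92a-3p, which a cluster on another chromosome also encodes, stood at 951, 3754 and 1254 CPM in control 1, 2 and 3 and at 690.3, 1755 and 2012 CPM in IS 1, 2 and 3. Like miR-363-3p it was highest in control 2 and IS 3. In contrast, miR-19b-3p of the same cluster was lowest in control 2 (38.3 CPM) and highest in control 1 (155 CPM).

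Among reads that carry the seed AUUGCAC, miR-363-3p was a small part. It gave 41 of 1625 such counts in control 2 (2.52%, 95% interval 1.82 to 3.41%) and 13 of 681 in IS 3 (1.91%, 1.02 to 3.24%). In control 3 it gave 3 of 2124 (0.141%, 0.0291 to 0.412%). In control 1 it gave 0 of 1290, with a 95% interval of up to 0.286% (0.233% at a limit of 3 counts). miR-25-3p and miR-92a-3p supplied nearly all of the rest.

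For miR-144-3p the nearest relative by seed was miR-101a-3p, which shares bases 2 to 7 and not base 8.
miR-101a-3p: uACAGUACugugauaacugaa
It stood at 1117, 1258 and 1477 CPM in control 1, 2 and 3 and at 885, 1078 and 1233 CPM in IS 1, 2 and 3, above miR-144-3p in each library and with far less spread.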

How the data were processed

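Per the labels' protocols, vesicle RNA came from an exoRNeasy Maxi kit and libraries from a NEBNext small RNA kit. The submitters' processing notes name CASAVA 1.8 and Bowtie without roles. For genome build, miRNA annotation, filters and use of strand the entry is: not given in the sources used here. Read counts for 620 miRNAs and a TPM column were deposited for each library. The deposited TPM equals count / total × 1000000 (largest difference 4.8e-10), so it holds no length term, and the name CPM is used for it. One count was worth 2.30 to 7.95 CPM. The labels name no molecular identifiers, so reads need not be separate molecules, and intervals and limits cover counting error only.

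Group and replicate number were read from each library name. The edgeR quasi-likelihood test (edgeR 4.0.16, R 4.3.3, TMM factors, filterByExpr with minimum count 10 and minimum total 15, no covariate, IS minus control) was fitted on the whole table and adjusted with Benjamini-Hochberg. It tested 206 miRNAs holding 99.7% of counts. The SE is the absolute log2 fold change divided by the square root of F. Shares and log2 ratios (0.5 added to each count, none for the red cell to leukocyte ratio) were compared with exact permutation tests (scipy 1.17.1). Repeats were rows of 50 counts or more in all that stayed within 2 counts or 6% of each other in each library. Alternatives were run with limma 3.58.1, DESeq2 1.42.0 and other scalings and filters. Hairpins were folded with RNAfold 2.7.2, and positions are from GENCODE and RefSeq on GRCm38, which need not be the authors' build. The scripts were tested on simulated data.

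The members, lists and tests were chosen with earlier results of these data known. Named were the 7 members, miR-23a-3p, miRNAs sharing a seed (miR-101a-3p, which shares 6 bases, was added after its values were seen), the most abundant members of the leukocyte, platelet, liver, muscle, other red cell and X-linked cluster lists, and the 5 tested miRNAs of highest Pearson r with miR-451a and with miR-144-3p.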

Additional observations from a re-analysis of the deposited data

How the results depend on the processing

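No miRNA passed the threshold (0 calls) under any of the 23 alternatives to the edgeR fit, DESeq2 and limma included, with 0 to 14 at an unadjusted p under 0.05 in each fit. Leaving out a library with the scaling of all 6 kept, and leaving out both control 3 and IS 2, were added after the data were seen.

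With 1 library left out and the fit redone, log2 fold changes ran from -0.17 to 0.53 for miR-451a, -1.08 to 0.33 for miR-144-3p, -1.36 to 1.13 for miR-144-5p, -0.082 to 0.74 for miR-486a-5p, -0.069 to 0.71 for miR-486a-3p, -0.065 to 0.73 for miR-486b-3p and -1.39 to 3.30 for miR-363-3p. This also moved the median of all tested miRNAs from 0.02 to values of -0.27 to 0.05. With the filter and scaling of all 6 libraries kept, signs still turned without IS 2 for miR-144-3p (-1.02), miR-144-5p (-1.29), miR-486a-5p (-0.034), miR-486a-3p (-0.022), miR-486b-3p (-0.018) and miR-363-3p (0.35), and without control 2 for miR-144-3p (-0.34), miR-144-5p (-0.037) and miR-363-3p (3.57), but not for miR-451a. With 1 library left out the red cell share difference ran from 0.128 to 7.41 points and the leukocyte one from -0.486 to 0.982. Log2 ratio differences ran from -0.023 to 1.16 (miR-451a to miR-144-3p), -0.22 to 0.31 (to miR-486), -3.28 to 0.32 (to miR-363-3p), -0.023 to 0.41 (to miR-23a-3p) and -0.051 to 0.37 (red cell to leukocyte). The other ratios kept their sign, at -0.71 to -0.087 (miR-144-3p to miR-144-5p) and 0.033 to 1.11 (miR-486 to miR-144-3p).

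Without both control 3 and IS 2 the fold changes of miR-144-3p and miR-144-5p were -0.98 and -0.75, and the red cell share difference was 3.53 points. miR-144-3p was -0.0054 with library totals alone and -0.28 with limma at either pseudocount, where miR-363-3p was 1.75 (pseudocount 1) and 2.08 (0.5). The r of miR-363-3p with miR-486a-5p was -0.15 with TMM scaling. The cause was not tested.

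The replicate block turned miR-144-3p to -0.37, miR-144-5p to -0.28 and miR-363-3p to 2.05 and left 0 calls. Deviations of same-numbered libraries correlated at 0.36, -0.41 and -0.17 for numbers 1, 2 and 3. Control 1 was most like IS 1 (0.36), control 2 most like IS 3 (0.36) and control 3 most like IS 2 (0.59). With 3 libraries a group these values cannot tell whether same-numbered libraries are paired. Depth limits miR-363-3p, at 0 to 41 counts, and miR-144-3p in IS 3, at 15.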

Other observations

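The tested miRNAs most like miR-363-3p over the 6 libraries were miR-30e-3p (Pearson r of log2(CPM + 1) 0.98), miR-30f (0.95), miR-760-3p (0.94), miR-134-5p (0.92) and miR-494-3p (0.91), a comparison chosen after the values were seen. Of these, miR-760-3p stood at 0, 51.01 and 2.30 CPM in control 1, 2 and 3 and at 80.4, 3.15 and 47.7 CPM in IS 1, 2 and 3. It was low in control 1, control 3 and IS 2, as was miR-363-3p, which follows from the choice by r. Its values in control 3 and IS 2 were those of 1 count, worth 2.30 and 3.15 CPM there.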
